A study of Mus musculus with 4 samples.

Results

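The genes described here are a set of 32 genes of the G2 phase and mitosis, made up of cyclins and kinases of mitotic entry, spindle checkpoint proteins, kinetochore proteins, spindle proteins and cytokinesis proteins. A member was measured by the brightest probe set that carried its symbol and no other, and 31 of the 32 had such a probe set, out of 22180 genes that did in all. Ccnb1, which encodes cyclin B1, was not analysed here because no probe set carried its symbol alone. All 31 passed the filter on dim probe sets and entered the fit over 11742 genes. With NF45 depleted, 25 of these 31 differed from control by at most 0.2 on the log2 scale. The members that differed most were Birc5, which encodes survivin and read 1.65-fold lower, Incenp, which read 1.28-fold lower, and Nusap1, which read 1.30-fold higher, and no member passed the adjusted threshold.

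The cells were Beta-TC-6, a line of mouse beta cells derived from insulinomas of mice that carry the large T antigen of a polyomavirus under the insulin promoter. Large T is known to bind p53 and the retinoblastoma family of cell cycle inhibitors, and both groups carry it. In this study 2 samples had been transfected with a negative control siRNA (siNTC) and 2 with a mixture of RNA duplexes against NF45 (siNF45), a subunit of a double-stranded RNA-binding complex, encoded by Ilf2. Genotype, medium and transfection reagent were the same in both groups, and no time after transfection is given in the sources used here. Each sample was measured on 1 Affymetrix Mouse Gene 2.1 ST array, and the question was which transcripts depend on NF45. The labels do not say whether samples of a group came from separate cultures, so the p-values cover the spread among these 4 samples alone, and that spread may be technical.

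A cell enters mitosis when cyclin B and cyclin A activate the kinase Cdk1, and chromosomes then attach to the spindle through kinetochores. The spindle checkpoint holds the anaphase-promoting complex inactive until every chromosome is attached, and the chromosomal passenger complex corrects faulty attachments before it moves to the midzone for cytokinesis. Transcripts of these proteins rise together in G2, under the B-Myb and MuvB complex, FoxM1 and NF-Y, so their summed level in a culture is widely read as a sign of proliferation. Depletion of NF45 has been linked to slow growth and multinucleated cells in a human cervical carcinoma line.

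Ilf2 itself fell on both arrays of the knockdown. Its probe set read 5.79 and 5.98 (log2) in siNTC and 3.67 and 3.77 in siNF45, a 4.48-fold lower level (limma adjusted p = 0.020). Of the beta cell markers, 11 of 12 were measured and all 11 passed the filter, with a mean of 6.81 to 6.93 per array. Markers of other islet cells were also present: 5 of 7 measured passed, with differences of both signs and none past the adjusted threshold of the limma fit. The delta cell hormone Sst read 9.19 and 8.83 in siNTC and 8.18 and 8.07 in siNF45. Irx1 and Irx2, transcription factors of alpha cells, differed by -0.55 and -0.39, and all 3 genes were lower without overlap. Irx1 averaged 1.665 over all arrays, just above the filter at 1.645. It passed through its siNTC values of 1.92 and 1.96, while its siNF45 values, 1.5 and 1.28, lay under the filter. Its difference therefore rests on values at the dim end and says little about alpha cells. Ppy, the hormone of PP cells, read 2.18 and 2.54 against 3.13 and 2.62, higher without overlap, and the alpha cell hormone Gcg differed by -0.02 with overlap. Of the exocrine and duct markers 1 of 7 passed, the duct keratin Krt7, at 3.41 and 3.13 against 3.91 and 3.96, higher without overlap. The part of such cells in the mitotic values was not tested. Of the endothelial, immune and mesenchymal markers 3 of 8 passed, all 3 with a mean of at most 1.82 where the filter lay at 1.65. The immune marker Ptprc averaged 1.51, the endothelial marker Pecam1 1.45 and the acinar marker Cpa1 1.43, all under the filter. Upper quartiles of the arrays ran from 3.20 to 3.36.

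As a set, the mitotic genes lay close to the tested genes in their median. Their median difference, siNF45 minus siNTC, was -0.07 on the log2 scale, beside -0.065 over all tested genes. This match depends on the filter: without it, the median over 22180 genes was -0.005 and that of the members stayed at -0.07. Below 0 lay 22 of 31 members, or 71.0%, where 61.3% of all tested genes did. The interquartile range of the members ran from -0.17 to 0.01, and that of all genes from -0.24 to 0.09. No member passed limma's adjusted threshold of 0.05, in a fit that called 10 genes, or 0.0852% of those tested. At an unadjusted p under 0.05, 0 members were higher and 1 was lower, Birc5, against backgrounds of 4.02% higher and 13.2% lower, or 17.2% in either direction. The array measures a whole culture, so fewer cells in G2 and mitosis and less RNA per such cell cannot be told apart.

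**Figure D1:**
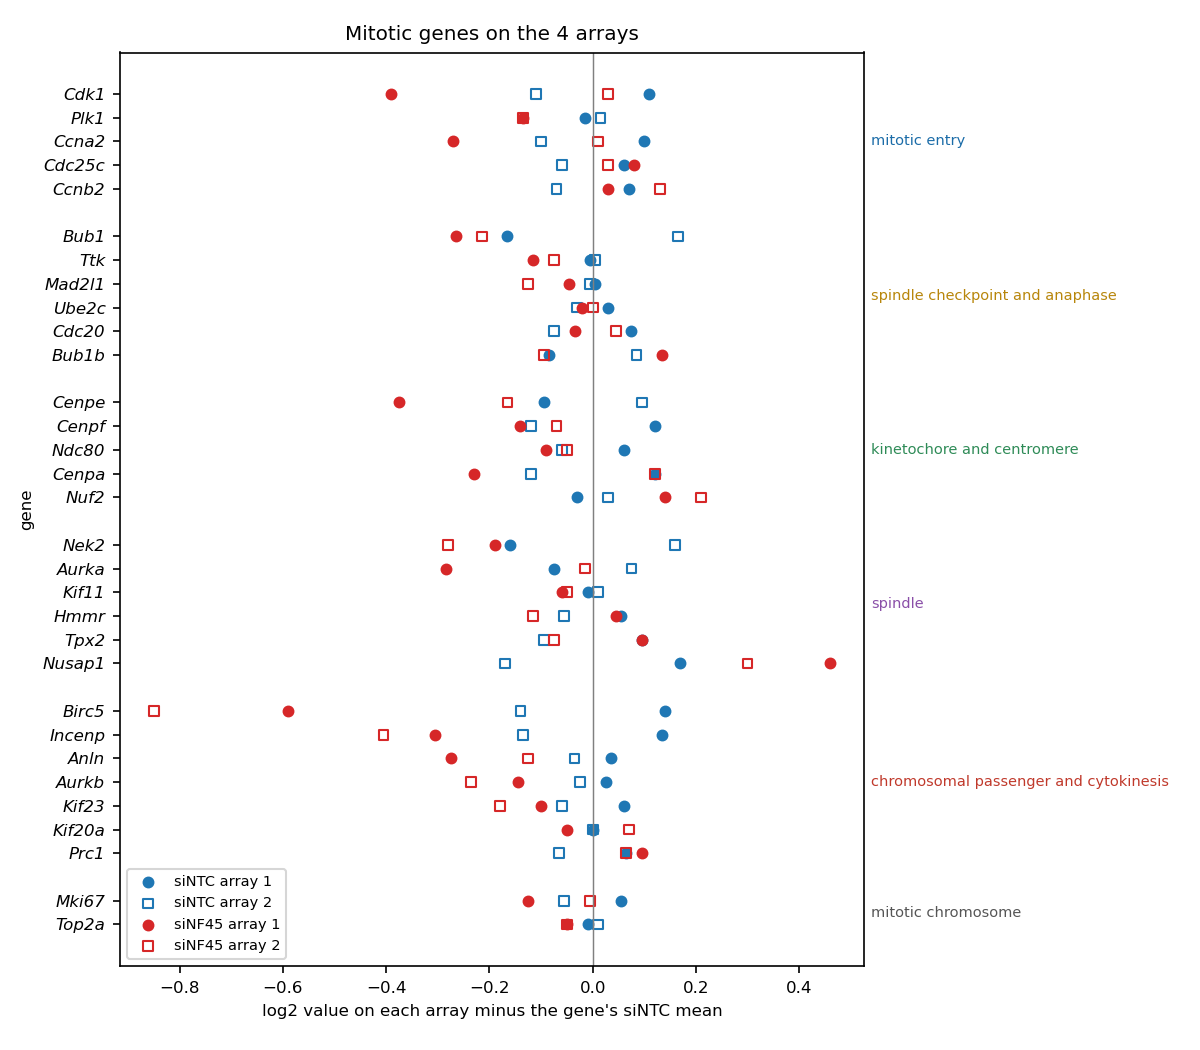
Log2 value of each of the 31 mitotic genes on the 4 arrays, minus the gene's own siNTC mean, with genes grouped by role; filled and open symbols are arrays 1 and 2, blue siNTC and red siNF45. In 16 of the 31 genes red and blue symbols overlap, in 13 both red symbols lie to the left of the blue ones, farthest for Birc5 and Incenp, and in 2, Nusap1 and Nuf2, both lie to the right.

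Separation of the groups was about as frequent among members as elsewhere. In 15 of 31 members the 2 siNF45 arrays lay on one side of both siNTC arrays, while this held for 47.8% of all tested genes. Of these 15, 13 were lower and 2 higher, where 32.6% of all genes were apart and lower and 15.2% apart and higher. The difference was larger than the larger gap between replicates in 13 members (background 35.7%). Members differed by at most 0.2 in 25 of 31 cases, a size that was chosen after the values were seen and that 57.9% of all tested genes met. Above 0.3 lay 3 members, against 26.0% of all genes. The members were brighter than the background, with medians per array of 5.90 to 5.98 beside 3.60 to 3.82 for all tested genes. The part of brightness in these shares was not tested. The 95% interval of the difference stayed within 1 log2 unit of 0 in 30 of 31 members, the exception being Birc5. It did so in 10861 of all 11742 tested genes. The median half-width of these intervals was 0.31 in the members and 0.35 over all tested genes.

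Of the 6 genes of mitotic entry, 5 were measured, with a median of -0.13 that became 0.03 without siNF45 replicate 1 and -0.03 without siNTC replicate 1. Cdk1, the kinase that drives entry, read 5.98 and 5.76 in siNTC and 5.48 and 5.90 in siNF45. The second siNF45 array lay between the siNTC arrays, so the groups overlapped around a difference of -0.18 (SE 0.18, 95% interval -0.63 to 0.27). Ccna2, encoding cyclin A2, gave the same picture, at 6.80 and 6.60 against 6.43 and 6.71 and a difference of -0.13. Ccnb2, the measured B-type cyclin, read 6.02 and 5.88 in siNTC and 5.98 and 6.08 in siNF45, and differed by 0.08. Cdc25c, the phosphatase that removes the inhibitory phosphates of Cdk1, differed by 0.06 with overlapping groups. Plk1, the polo kinase of entry and spindle assembly, had the narrowest spread of these, at 6.5 and 6.53 against 6.38 and 6.38. Its groups did not overlap, yet the difference of -0.14 (SE 0.12) had an adjusted p of 0.603 in the limma fit, which moderates very small spreads towards the common one.

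Checkpoint and anaphase genes had a median of -0.05 over 6 members, and of -0.085 without siNF45 replicate 1. Bub1, a kinase that recruits checkpoint proteins to the kinetochore, read 5.64 and 5.97 in siNTC and 5.54 and 5.59 in siNF45. Both siNF45 values were below both siNTC values, but the gap between the siNTC arrays, 0.33, was larger than the difference of -0.24 (SE 0.15). Bub1b, which encodes the checkpoint protein BubR1, overlapped fully, with 4.22 and 4.39 against 4.44 and 4.21. Its difference was 0.02 (95% interval -0.33 to 0.37). Ttk, the checkpoint kinase also called Mps1, read 4.35 and 4.36 against 4.24 and 4.28, and Mad2l1, the Mad2 subunit of the checkpoint complex, 6.35 and 6.34 against 6.30 and 6.22. Both were lower without overlap, with differences of -0.10 and -0.09. The anaphase-promoting complex needs Cdc20 as activator and Ube2c as ubiquitin-conjugating enzyme, and these differed by 0.005 and -0.01. Among the measured members these were 2 of the 4 smallest differences, and their 95% intervals ended at -0.31 and 0.32 for Cdc20 and at -0.30 and 0.28 for Ube2c.

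Kinetochore and centromere genes had a median of -0.07 over 5 members and went both ways. That median was 0.015 without siNTC replicate 1, -0.175 without siNTC replicate 2 and -0.14 without siNF45 replicate 2. Cenpe, a kinesin that carries chromosomes to the spindle equator, read 6.88 and 7.07 in siNTC and 6.60 and 6.81 in siNF45. The groups were apart and the difference was -0.27 (SE 0.14, limma adjusted p = 0.398). Nuf2 and Ndc80 are partners in the complex that grips microtubule ends, and they did not share a direction. Nuf2 was higher on both siNF45 arrays, at 7.13 and 7.20 against 6.96 and 7.02, a difference of 0.18 (SE 0.12). Ndc80 overlapped at 7.72 and 7.60 in siNTC and 7.57 and 7.61 in siNF45, and differed by -0.07. Cenpf, a large kinetochore protein of G2, read 6.5 and 6.26 against 6.24 and 6.31. Cenpa, the histone variant of centromeres, read 5.06 and 4.82 against 4.71 and 5.06, so that its replicates spread more within siNF45 than the groups differed, which was by -0.06.

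The spindle genes held the member that stood highest in siNF45, around a median of -0.05 over 6 members that ran from -0.075 without siNTC replicate 2 to -0.0075 without siNF45 replicate 2. Nusap1, a microtubule-bundling protein of the spindle, read 5.26 and 4.92 in siNTC and 5.55 and 5.39 in siNF45. All siNF45 values lay above all siNTC values, and the mean went from 5.09 ± 0.24 to 5.47 ± 0.11 (SD, n = 2 each). The difference of 0.38 (SE 0.16, 95% interval -0.02 to 0.78) had a limma adjusted p of 0.306 and was higher than that of 96.0% of tested genes. Nek2, a kinase of centrosome separation, read 5.96 and 6.28 against 5.93 and 5.84, a difference of -0.24, smaller than the 0.32 between its siNTC arrays. Aurka, the Aurora A kinase of spindle poles, and Tpx2, which activates it on microtubules, differed by -0.15 and 0.01 with overlapping groups. Kif11, the kinesin that pushes spindle poles apart, read 7.53 and 7.55 against 7.48 and 7.49, among the tightest of all, for a difference of -0.06. Hmmr, a spindle protein also known as a hyaluronan receptor, read 5.93 and 5.82 against 5.92 and 5.76.

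Chromosomal passenger and cytokinesis genes were the role with the lowest median, -0.19 over 7 members, and 5 of the 7 were lower without overlap, beside 32.6% of all tested genes. Without 1 array this median lay between -0.215 and -0.145. Birc5 read 5.04 and 4.76 in siNTC and 4.31 and 4.05 in siNF45. Survivin, its product, anchors the passenger complex at the centromere and is also known as an inhibitor of apoptosis. The mean went from 4.90 ± 0.20 to 4.18 ± 0.18 (SD, n = 2 each), a difference of -0.72 (SE 0.16, 95% interval -1.12 to -0.32) with a limma adjusted p of 0.135. By unadjusted p it ranked 422 of 11742 genes, and 2.48% of tested genes had a lower difference.

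Incenp, the scaffold of the same complex, read 5.54 and 5.27 in siNTC and 5.10 and 5.0 in siNF45. The difference of -0.36 (SE 0.14) was larger than either replicate gap but had a limma adjusted p of 0.290. Aurkb, the Aurora B kinase of the complex, was lower by a smaller amount, at 5.77 and 5.72 against 5.60 and 5.51, or -0.19 (SE 0.12, limma adjusted p = 0.467). All 3 passenger subunits in the set were below their controls without overlap, as 32.6% of all tested genes were. The remaining core subunit, borealin, is encoded by Cdca8, which is not one of the 32, and it read 4.59 and 4.56 against 4.90 and 4.44, with overlap and a difference of 0.10; it was looked up after the other values were seen.

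Among the cytokinesis proteins proper, Anln, the actin-binding anillin of the contractile ring, read 5.81 and 5.74 against 5.50 and 5.65, a difference of -0.20 (SE 0.13). Kif23, the kinesin of the centralspindlin complex, read 5.89 and 5.77 against 5.73 and 5.65, or -0.14. Both were apart in the lower direction. Prc1, which bundles midzone microtubules, overlapped at 6.98 and 6.85 against 7.01 and 6.98 and differed by 0.08. Kif20a, a midzone kinesin, differed by 0.01.

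Finally, 2 members belong to mitotic chromosomes and are the usual proliferation markers, with a median of -0.06 that was -0.0875 without siNF45 replicate 2 and -0.0275 without siNF45 replicate 1. Mki67, which encodes the surface coat protein Ki-67, read 8.35 and 8.24 in siNTC and 8.17 and 8.29 in siNF45. Its difference of -0.07 (95% interval -0.37 to 0.24) equalled the median of all tested genes. Top2a, the topoisomerase that disentangles sister chromatids, read 7.87 and 7.89 against 7.83 and 7.83, and differed by -0.05 (95% interval -0.34 to 0.24). Both intervals include 0. They are not limits of what 2 arrays per group could detect.

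**Figure D2:**
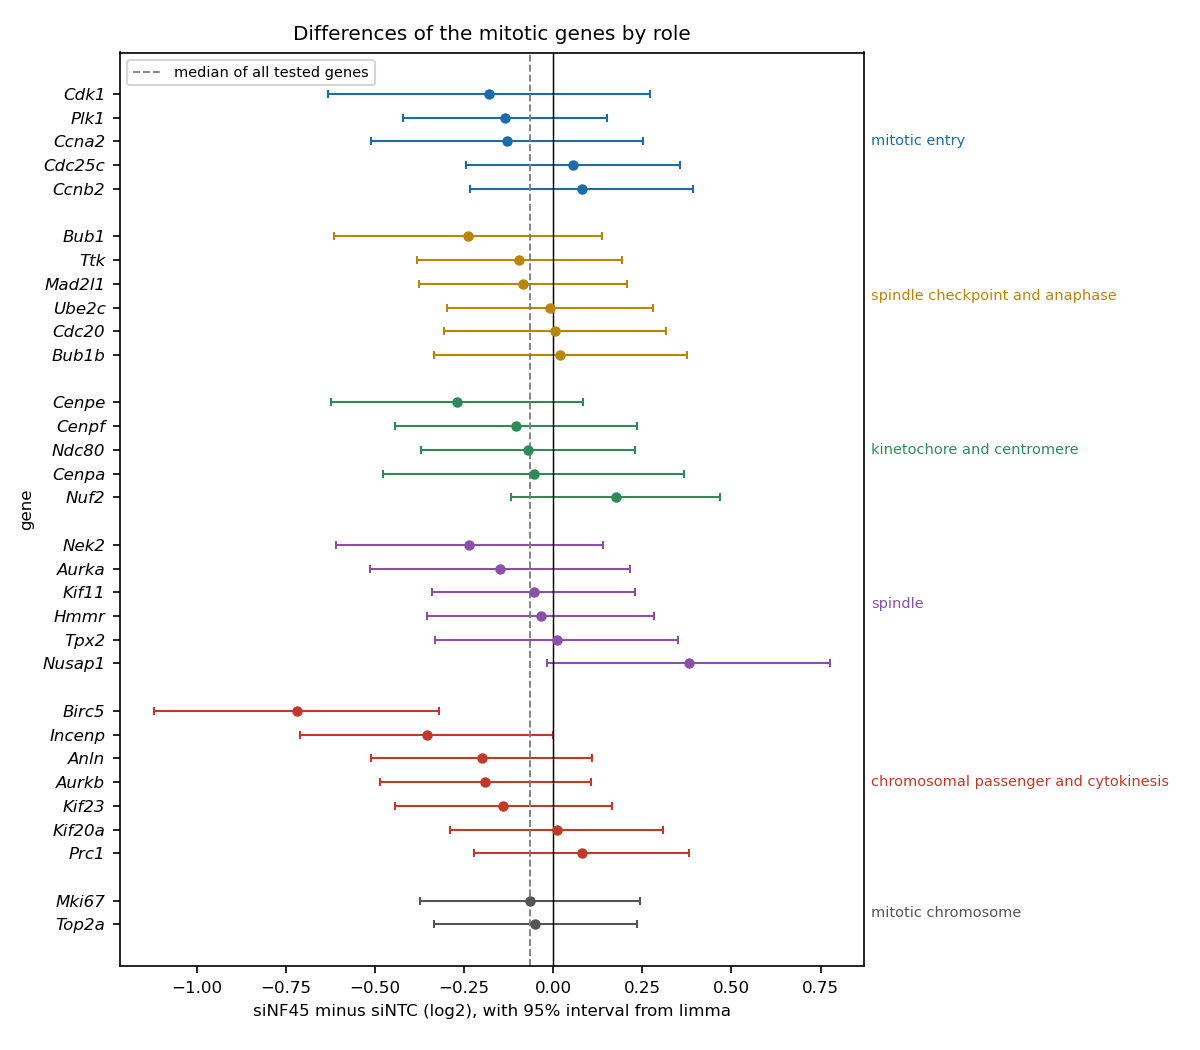
Difference of each of the 31 mitotic genes, siNF45 minus siNTC on the log2 scale, and its 95% interval from limma, coloured by role; the dashed line is the median of all tested genes, -0.065. Birc5 is the gene whose interval, -1.12 to -0.32, lies clear of the dashed line on the low side, and the role with the lowest median, -0.19, is chromosomal passenger and cytokinesis.

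The sign of small differences depended both on the scaling of the arrays and on single arrays. Over the tested genes, the 2 siNTC arrays had medians of 3.82 and 3.76, and the 2 siNF45 arrays 3.72 and 3.60. Subtracting each array's own median moved the median of all genes from -0.065 past 0 to 0.065 and that of the members to 0.06, and 10 members changed sign. This centring thus overshot for the typical gene. Quantile normalization put the median of all genes at -0.018 and that of the members at -0.029, and it changed the sign of Hmmr and Ube2c. As deposited and relative to the median of all genes, Birc5 lay at -0.66, Incenp at -0.29 and Nusap1 at 0.45. Of the 12 alternatives run, 6 change the test or the genes tested and leave a member's difference as it is, and 6 can move it: quantile normalization, centring and the 4 fits without 1 array. In these 6, 14 of the 31 members kept their direction, namely Birc5, Incenp, Aurkb, Anln, Kif23, Cenpe, Bub1, Nek2, Plk1 and Aurka on the lower side and Nusap1, Nuf2, Prc1 and Ccnb2 on the higher side. Of these 14, 10 moved by over 1.5 times without 1 array. Without siNTC replicate 2, Bub1 went from -0.24 to -0.075, Nek2 from -0.235 to -0.075, Ccnb2 from 0.08 to 0.01 and Prc1 from 0.08 to 0.015. Without siNF45 replicate 1, Aurka went from -0.15 to -0.015, Cenpe from -0.27 to -0.165 and Anln from -0.20 to -0.125, and Kif23 went from -0.14 to -0.08 without siNTC replicate 1. The other 4, Birc5, Aurkb, Nuf2 and Plk1, moved less. Centring put Plk1 at -0.005 and Kif23 at -0.01. Over all 12 alternatives Birc5 stayed between -0.86 and -0.58 at limma adjusted p of 0.079 to 0.471, and Nusap1 between 0.21 and 0.55. The lowest value of Birc5 was without siNTC replicate 2 and its highest without siNTC replicate 1. For Nusap1 the value was 0.21 without siNTC replicate 2, and for Incenp it was -0.22 without siNTC replicate 1.

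**Figure D3:**
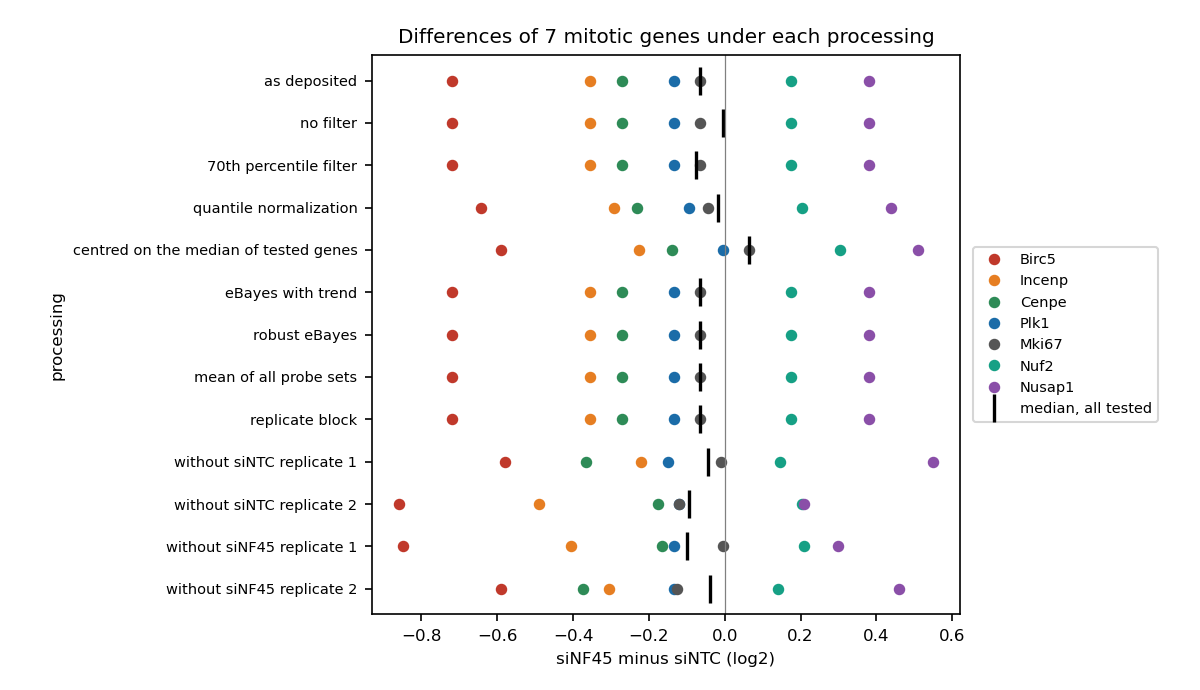
Differences of 7 mitotic genes, siNF45 minus siNTC on the log2 scale, under the processing as deposited and each of 12 alternatives; black ticks give the median of all tested genes. Birc5 stays at the left, between -0.86 and -0.58, and Nusap1 stays to the right of 0. Mki67 runs from -0.125 without siNF45 replicate 2 to 0.065 after centring.

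Transcription factors and cofactors of the G2/M programme went both ways in siNF45, 10 of 17 below 0 and 7 above, without passing the threshold. The list is not of activators alone, since it also holds Rb1, Rbl1 and Rbl2, of the retinoblastoma family of cell cycle inhibitors. Of 17 tested transcription factors of this programme, 0 passed limma's adjusted threshold, while 5 were lower and 0 higher at an unadjusted p under 0.05, 29.4% beside 17.2% of all genes. MuvB subunits did not share a direction. Lin52 read 4.57 and 4.87 in siNTC and 4.15 and 4.04 in siNF45, a difference of -0.63 (SE 0.15, limma adjusted p = 0.145). Lin9 read 5.76 and 5.29 against 5.80 and 5.95 and Lin54 5.82 and 5.63 against 6.0 and 5.85. Both were higher without overlap, by 0.35 (SE 0.19) and 0.20 (SE 0.14). The other subunits listed, Lin37 and Rbbp4, differed by 0.065 and 0.095 with overlap. Mybl2, which encodes B-Myb, read 4.65 and 4.42 against 4.04 and 3.81, or -0.61 (SE 0.15, limma adjusted p = 0.150). Nfya, a subunit of NF-Y, differed by -0.33 (SE 0.12, limma adjusted p = 0.242). The median of the list was -0.045, close to all genes, and Foxm1, looked up after its value was seen, overlapped at 5.13 and 4.64 against 4.73 and 4.77.

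Some of these factors read particular letters in promoters, so the promoter windows of the members were set beside the values. In the RefSeq windows of the mouse build GRCm38.p6, from 250 bases before to 50 after a gene's start, 26 of the 32 members had an entry. The cell cycle homology region (CHR), bound by the MuvB complex, was searched as TTTGAA on both strands, and the CCAAT box, bound by NF-Y, as CCAAT on both strands. A match of one can share at most 1 base with a match of the other, and they were counted separately. CHR letters stood in a window of 18 of 26 members, or 69.2%, against 14.1% of 9235 tested genes with a window. CCAAT stood in 20 of 26, or 76.9%, against 43.3% of those genes. Both occurred in 61.5% of members and in 5.71% of those genes. Counted by window and not by gene, the shares of all 32851 windows were 17.9% for CHR, 37.4% for CCAAT and 6.95% for both.

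Windows are shown for the member that stood lowest, the one that stood highest, and a pair of entry kinases that differed little, Plk1 and Cdk1. Capitals mark CHR and CCAAT letters on either strand.
Birc5 chr11:117848987-117849286 (plus strand): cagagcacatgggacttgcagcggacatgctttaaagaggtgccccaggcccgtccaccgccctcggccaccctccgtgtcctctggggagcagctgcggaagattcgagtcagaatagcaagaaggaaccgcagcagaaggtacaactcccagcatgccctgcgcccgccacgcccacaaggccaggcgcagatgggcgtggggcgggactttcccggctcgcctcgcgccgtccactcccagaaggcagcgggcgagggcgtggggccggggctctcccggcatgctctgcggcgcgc
Nusap1 chr2:119618048-119618347 (plus strand): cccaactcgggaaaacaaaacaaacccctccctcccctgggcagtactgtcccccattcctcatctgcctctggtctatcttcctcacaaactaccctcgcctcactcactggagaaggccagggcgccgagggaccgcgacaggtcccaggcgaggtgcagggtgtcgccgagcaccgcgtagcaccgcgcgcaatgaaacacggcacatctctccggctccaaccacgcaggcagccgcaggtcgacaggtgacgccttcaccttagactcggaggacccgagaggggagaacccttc
Plk1 chr7:122159185-122159484 (plus strand): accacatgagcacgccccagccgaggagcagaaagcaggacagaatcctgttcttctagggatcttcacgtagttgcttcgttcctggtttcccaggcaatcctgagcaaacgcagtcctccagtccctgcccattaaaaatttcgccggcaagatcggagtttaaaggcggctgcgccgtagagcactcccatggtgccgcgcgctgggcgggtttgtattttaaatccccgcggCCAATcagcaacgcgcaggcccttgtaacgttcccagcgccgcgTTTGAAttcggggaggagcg
Cdk1 chr10:69352863-69353162 (minus strand): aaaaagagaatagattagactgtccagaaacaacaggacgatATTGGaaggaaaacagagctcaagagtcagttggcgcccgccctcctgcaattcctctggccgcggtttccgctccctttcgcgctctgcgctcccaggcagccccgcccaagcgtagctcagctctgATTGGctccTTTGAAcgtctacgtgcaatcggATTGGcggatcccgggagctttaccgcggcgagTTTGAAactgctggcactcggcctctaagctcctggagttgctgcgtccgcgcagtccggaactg
Neither set of letters is in the windows of Birc5 and Nusap1, which says only that these letters are not in these windows. Plk1 has 1 CHR and 1 CCAAT match, and Cdk1 has 2 and 3.

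Differences were set against these letters after both had been seen, so this is a description with no test. The 18 tested members with CHR letters lay between -0.20 and 0.08 around a median of -0.06, and 0 of them differed by more than 0.2. The 7 tested members without them were Birc5, Bub1, Cenpe, Mad2l1, Nek2, Nuf2 and Nusap1. They lay between -0.72 and 0.38 around a median of -0.24, and 5 of the 7 differed by more than 0.2. Groups were apart in 6 of the 18 and in 7 of the 7, beside 47.8% of all tested genes. Of the 5 that differed by more than 0.2, Bub1 and Nek2 stood at -0.075 without siNTC replicate 2 and Cenpe at -0.165 without siNF45 replicate 1. Over all tested genes with a window, the share that differed by more than 0.2 was 39.6% with CHR letters and 41.6% without. Incenp and Aurkb, the other passenger genes, had no entry, and Ccnb1, with no measured value, is left out of these counts.

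**Figure D4:**
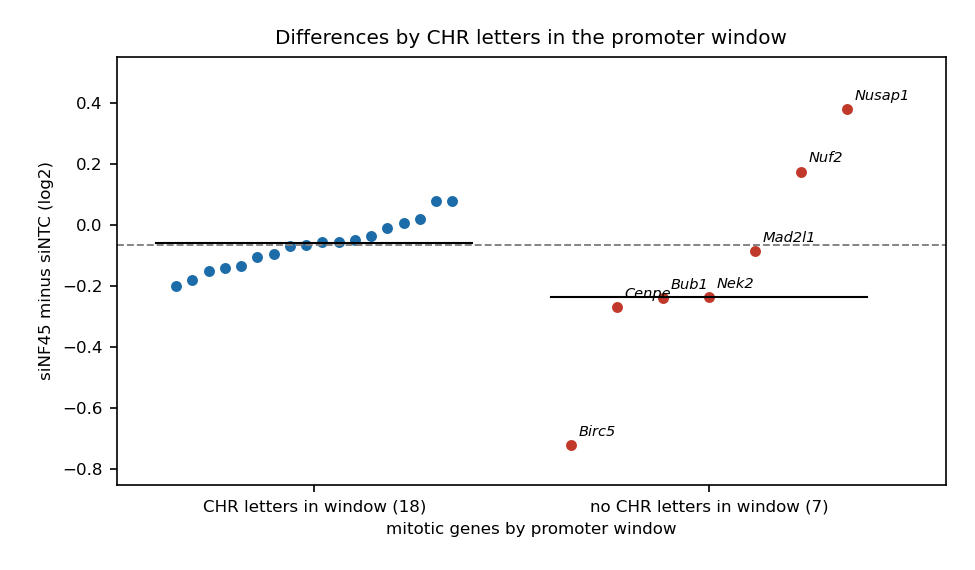
Difference of each of 25 mitotic genes with a promoter window, siNF45 minus siNTC on the log2 scale, split by whether CHR letters were found in the window; points are genes in rising order, black lines group medians and the dashed line the median of all tested genes. The 18 genes with the letters lie between -0.20 and 0.08, and the 7 without lie between -0.72 and 0.38.

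Mitotic genes outside the set were read from lists drawn by function, 162 genes in all with 150 tested. Limma called 0 of them, while 2 were higher and 17 lower at an unadjusted p under 0.05, 12.7% together beside 17.2% of all tested genes. Their median was -0.03. Among 15 tested regulators of mitotic entry, 1 was lower at that level (background 13.2%), Cks1b, a small Cdk-binding protein, at 3.93 and 4.21 against 3.69 and 3.59, or -0.43 (SE 0.14). Next by p were Mnat1, of the Cdk-activating kinase, at -0.31 and the phosphatase Cdc25a at -0.25.

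The anaphase-promoting complex gave 3 of 17 lower at an unadjusted p under 0.05 and 0 higher, or 17.6%, beside 17.2% of all tested genes in either direction and 13.2% lower. Anapc2, its cullin-like subunit, read 4.69 and 4.6 against 4.17 and 4.28, a difference of -0.42 (SE 0.12, limma adjusted p = 0.195). Fzr1, the activator Cdh1 that takes over from Cdc20 late in mitosis, read 4.34 and 4.38 against 3.93 and 4.0, or -0.40 (SE 0.12, limma adjusted p = 0.20). Anapc16 differed by -0.47 (SE 0.17). Cdc20, at 0.005, and Fzr1 were not compared with each other by a test.

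Other kinetochore and centromere proteins were centred on 0, with a median of 0.01 over 31 tested genes, 16 above and 15 below. At an unadjusted p under 0.05, 1 was higher and 0 were lower, or 3.23% beside 17.2% of all tested genes. That was Zwilch, of the complex that brings dynein to kinetochores, at 3.74 and 4.08 against 4.40 and 4.44, a difference of 0.51 (SE 0.15, limma adjusted p = 0.202). Mad1l1, the Mad2 partner Mad1, differed by -0.23 and Cenph by -0.19. Of these 31 genes 5 had groups that did not overlap, or 16.1% beside 47.8%.

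Cohesin and condensin genes had 1 higher and 1 lower of 23 at an unadjusted p under 0.05, or 8.70% beside 17.2% of all tested genes. Ncapg2, a condensin II subunit, differed by -0.39 (SE 0.13) and Wapl, which releases cohesin from chromosomes, by 0.39 (SE 0.13). Pds5b, a partner of Wapl, differed by 0.32 (SE 0.14). Limma adjusted p of the 3 lay between 0.234 and 0.330.

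Other spindle and cytokinesis proteins had a median of -0.04 over 35 tested genes, 5 of them lower and 0 higher at an unadjusted p under 0.05, or 14.3% beside 13.2% of all tested genes lower. Kifc1, a minus-end kinesin that clusters spindle poles, read 3.74 and 3.89 in siNTC and 3.22 and 2.47 in siNF45. Both siNF45 arrays were below the controls, and they lay 0.75 apart from each other, around a difference of -0.97 (SE 0.25, limma adjusted p = 0.163). Septin9, a cytoskeletal GTPase of cytokinesis, differed by -0.53 (SE 0.14) and Haus4, of the augmin complex, by -0.46 (SE 0.14). Cyclin-dependent kinase inhibitors and p53-linked brakes had 2 of 12 lower and 0 higher at that level, or 16.7% beside the same 13.2%. They were Gadd45g at -0.63 (SE 0.13, limma adjusted p = 0.130) and Cdkn2d, the p19 inhibitor, at -0.44 (SE 0.15), followed by the p53 target Ccng1 at 0.25.

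**Figure D5:**
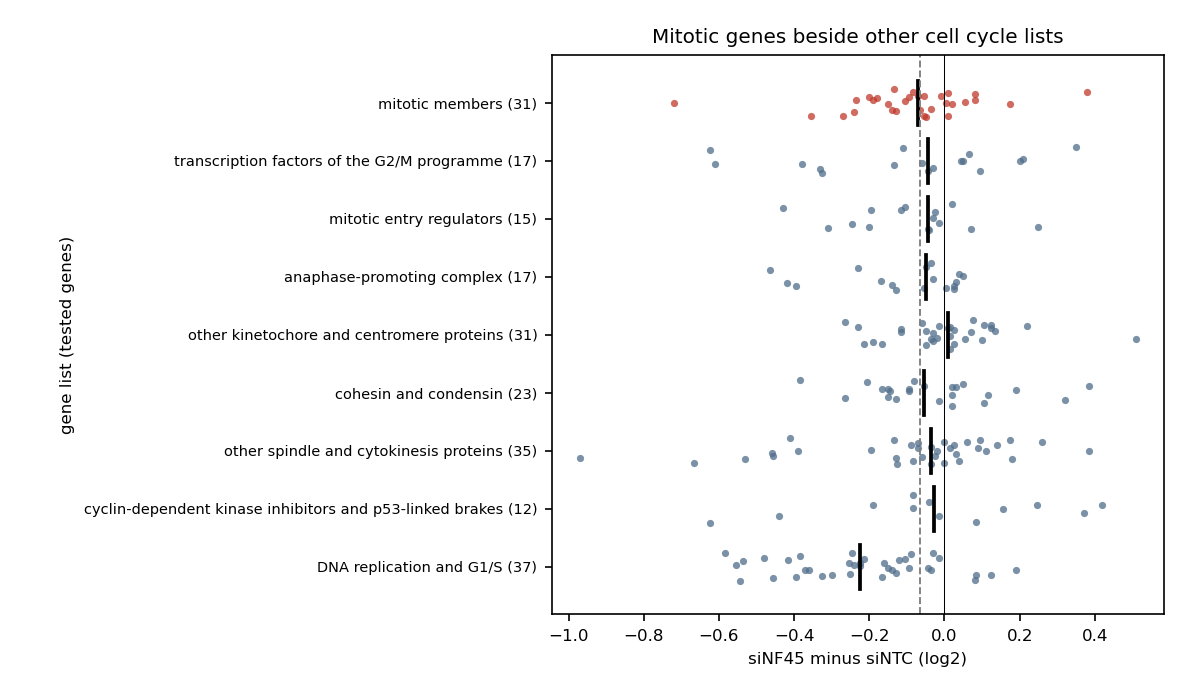
Differences, siNF45 minus siNTC on the log2 scale, of the 31 mitotic genes (red) and of 8 other cell cycle lists (blue), 1 point per tested gene; black bars are list medians and the dashed line is the median of all tested genes. The mitotic members centre on -0.07 and the DNA replication and G1/S genes on -0.23.

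The nearest neighbour of the mitotic programme in the cell cycle is DNA replication and G1/S. Of 37 tested genes there, 33 were below 0, with a median of -0.23 and 0 called by limma. At an unadjusted p under 0.05, 10 were lower and 0 higher, or 27.0%, beside 3.23% of the mitotic members and 17.2% of all genes. Groups were apart in 27 of the 37 replication genes, or 73.0%, and 15 of the 31 mitotic genes, or 48.4%, beside 47.8% of all tested genes. No test compared the lists, whose genes come from the same arrays. Gene lists of both were chosen with earlier results of these data known.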

How the data were processed

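Total RNA of 4 samples of Beta-TC-6 cells, 2 per group, was hybridised to 1 array each. The authors deposited log2 values, 1 for each probe set on each array. Transcriptome Analysis Console is named in the submitters' processing notes; its version, how probes were summarised and whether background was corrected is not given in the sources used here. No source states the log base; values from 0.12 to 12.21 were taken as log2, array medians were 1.64 to 1.66, genes were not centred, and columns are named by sample, which fixes direction. No detection calls or intensities were used, and the number of arrays limits precision.

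Of 41345 probe sets, 23521 carried 1 gene symbol, 1814 several and 16010 none; RefSeq held 23328 of the 23521 by gene number, with 0 symbols changed. Probe sets with a mean of at least 1.645, the median of all, were kept, and the brightest per gene gave 11742 genes. The comparison used R 4.3.3 and limma 3.58.1 (lmFit, eBayes, no covariate, 2 residual and 3.69 prior degrees of freedom), with Benjamini-Hochberg adjustment over all tested genes and a threshold of 0.05. An exact permutation test of 2 arrays against 2 has 0.333 as its smallest two-sided p, so none is given for single genes. On simulated data for this comparison (11742 genes, 200 of them changed, 10 runs) the fit recovered 97.6% of changes of 2 and 60.4% of changes of 1 on the log2 scale. Of its intervals for unchanged genes, 94.9% covered 0, and coverage for changed genes was not measured. These rates belong to the simulated number and size of changes. In the data 86 tested genes differed by more than 1, and 10 genes were called.

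Each member is reported. For the other lists the 3 genes with the smallest p are considered, and Lin9, Lin54, Lin37, Rbbp4, Foxm1 and Cdca8 are given outside that rule. The members and lists were chosen with earlier results of these data known. Both groups use the replicate numbers 1 and 2, which were not read as pairs. Alternatives were other filters, quantile normalization, centring, eBayes with trend or robust, the mean of all probe sets, a replicate block and leaving out each array.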

Additional observations from a re-analysis of the deposited data

How the results depend on the processing

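With 2 arrays per group precision is limited: the median 95% half-width of a member was 0.31 on the log2 scale. In each fit on all 4 arrays limma called 0 members. At an unadjusted p under 0.05 these fits had 1 to 4 of the 31 members, Birc5 among them, beside 12.5% to 20.3% of all genes. The fit with 4, eBayes with trend, had 18.4% of all genes at that level. All genes called numbered 10 as deposited, 174 with a trend in eBayes, 172 after centring, 87 with the 70th percentile filter, 62 after quantile normalization, 0 with the replicate block (1909 at an unadjusted p under 0.05) and 0 in each fit without 1 array (1236 to 1670), which lets the lone array take its spread from the other group. Deviations of replicates with the same number correlated at 0.0062 between groups over genes and at 0.015 over members, so the numbers were not used as pairs; with the replicate block, Birc5 had an adjusted p of 0.258.

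The median of the members was -0.07 as deposited, -0.029 after quantile normalization (all genes -0.018), 0.06 after centring (all genes 0.065) and -0.10 to -0.05 without 1 array. The value of -0.10 came without siNF45 replicate 2 (all genes -0.04), and that of -0.05 without siNF45 replicate 1 (all genes -0.10). Only quantile normalization, centring and the 4 fits without 1 array can move a member's difference, and of their 186 values of members 28 were on the other side of 0 from the value as deposited. Quantile normalization put Hmmr at 0.023 and Ube2c at 0.048. Centring put Ttk at 0.035, Cenpf at 0.025, Mad2l1 at 0.045, Ndc80 at 0.06, Mki67 at 0.065, Kif11 at 0.075, Top2a at 0.08, Cenpa at 0.075, Hmmr at 0.095 and Ube2c at 0.12. Leaving out 1 array gave ranges that span 0 for Cdk1 (-0.39 to 0.03), Ccna2 (-0.27 to 0.01), Cdc25c (-0.005 to 0.115), Bub1b (-0.095 to 0.135), Cdc20 (-0.07 to 0.08), Ube2c (-0.04 to 0.02), Cenpa (-0.23 to 0.12), Cenpf (-0.225 to 0.015), Tpx2 (-0.085 to 0.105), Hmmr (-0.115 to 0.045) and Kif20a (-0.05 to 0.07). Centring moves values by construction; the cause of the others was not tested.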
